A study of Rattus norvegicus with 21 samples.

Results

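The NF-kB subunits, their inhibitors and known target genes of miR-146a were examined as 10 genes taken by symbol from an mRNA table of 32750 rows. They comprised the 5 subunit genes Nfkb1, Nfkb2, Rela, Relb and Rel, the 3 inhibitor genes Nfkbia, Nfkbie and Tnfaip3, and the 2 miR-146a target genes Traf6 and Irak1. Each symbol matched 1 row, and all 10 passed the minimum mean of 10 normalized counts. The cells were INS-1 832/13 cells, a rat insulinoma line that makes and releases insulin, seeded 24 h before exposure. Polyadenylated RNA was sequenced in 5 libraries labelled as exposed to inorganic arsenic (iAs, 1 µM, 24 h) and 4 labelled as untreated. Small RNA was sequenced in 3 libraries each of iAs (1 µM), cadmium (Cd, 5 µM), manganese (Mn, 25 µM) and untreated cells, all 24 h. All groups are of 1 cell line. The labels do not say whether replicate libraries are separate cultures, and p-values measure only the spread between these libraries, which may be technical.

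NF-kB is a family of dimeric transcription factors that inhibitor proteins of the IkB family hold in the cytoplasm. In the canonical branch, receptors for cytokines and microbial products signal through adaptors such as IRAK1 and TRAF6 to a kinase that marks IkB for destruction, which frees dimers of p50 and RELA. In the non-canonical branch the precursor made from Nfkb2 is processed to p52, the partner of RELB. Several genes of the system are themselves induced by NF-kB, among them Nfkbia, Tnfaip3, Nfkb2 and the gene of miR-146a. In beta cells NF-kB is best known as a mediator of the response to inflammatory cytokines.

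The mRNA columns held between 51009800 and 55869159 normalized counts, and the most common value among the lowest ones, near what 1 read is worth, was 0.81 to 1.2 normalized counts in a library. Lane 4 held every mRNA library labelled iAs and lane 3 every one labelled untreated, and the effects of lane and exposure cannot be told apart. The labels name liver as the tissue. The summed level of the 10 beta cell markers was 2284090 to 2795583 normalized counts where labelled iAs and 2531581 to 2936995 where labelled untreated. Ins1 alone averaged 1508062 and 1811311 in the same order. Of the 10 beta cell markers, Nkx6-1 was called lower (log2 difference -0.46) and Chga and Slc2a2 higher (0.36 and 0.53). Of 2 tested fibroblast and endothelial markers, Col1a1 was called lower (-1.98) and Kdr was not called (0.63, limma adjusted p = 0.145). Col1a1 was low, averaging 5.33 normalized counts where labelled iAs and 19.5 where labelled untreated. The summed level of the 7 measured was 86.0 to 174.5 where labelled iAs and 72.2 to 132.4 where labelled untreated. Of the 8 hepatocyte markers, Alb and Cps1 reached at most 2.01 and 2.87 normalized counts and Cyp2e1 was listed at 0. The others averaged, where labelled iAs and untreated, 1286 and 1225 (Tf), 972 and 1331 (Ass1) and 274 and 391 (Serpina1). Fgb averaged 252 and 637 and Apoa1 13.7 and 11.9 in the same order. The summed level of the 8 was 2503 to 3019 normalized counts in libraries labelled iAs and 3308 to 3821 where labelled untreated. Of the 5 tested, 2 were called lower, Fgb and Ass1. Of 7 measured immune cell markers Ptprc was listed at 0, and the summed level was 43.5 to 89.2 normalized counts in libraries labelled iAs and 31.2 to 54.4 where labelled untreated. Cd68, the 1 immune marker with a mean high enough to be tested, was called (higher, log2 difference 0.83, limma adjusted p = 0.04997), and its part in the results was not tested. Hmox1, which arsenic is known to induce in many cell types, averaged 1739 ± 465 normalized counts where labelled iAs and 14132 ± 1727 where labelled untreated (SD, n = 5 and 4). The metallothionein gene Mt1, which metals are also known to induce, averaged 887 ± 249 where labelled iAs and 3671 ± 1312 where labelled untreated (log2 difference -2.04, limma adjusted p = 8.5e-05). Both differences run against the known inductions, and whether the mRNA group labels are swapped was not tested. Every mRNA direction below rests on those labels.

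The iAs comparison asked whether the NF-kB system of the line differs after 24 h at 1 µM. All 5 subunit genes and all 3 inhibitor genes fell in the libraries labelled iAs, and neither miR-146a target gene was called. Nfkb2 fell most, to 37.3% of its untreated mean, followed by Nfkbie, Relb and Nfkbia at 51.7%, 52.7% and 57.0%. Rela and Nfkb1 fell least, to 79.9% and 80.4%. Thus 8 of 10 genes were lower, where 14.9% of the 14410 genes tested were called lower, 15.1% higher and 30.0% in either direction (limma, Benjamini-Hochberg adjusted p under 0.05). The same 8 genes had no overlap between the groups, as had 25.9% of all genes tested in either direction and 12.9% with the lower values in libraries labelled iAs. Lack of overlap rests on the same values as the calls. In these bulk libraries, fewer cells of a type and less RNA per cell cannot be told apart.

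**Figure D1:**
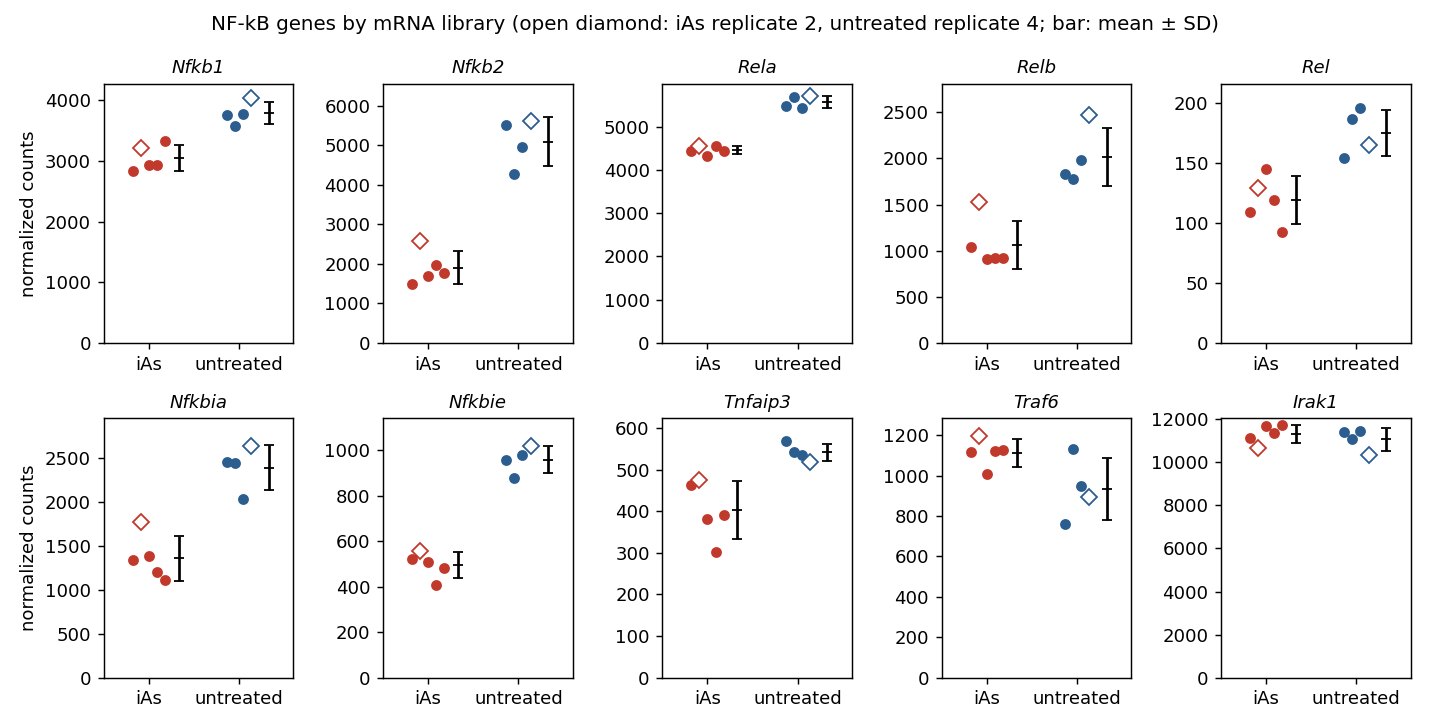
Normalized counts of the 10 genes (y axis, from 0) in each mRNA library, with the 5 libraries labelled iAs left of the 4 labelled untreated and the mean ± SD beside them. The 8 subunit and inhibitor genes separate without overlap, Traf6 and Irak1 overlap, and open diamonds mark iAs replicate 2 and untreated replicate 4, whose library codes share an ending.

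Promoter sequence from RefSeq (build GRCr8) was available for 8 of the 10 genes as windows from 250 bases before to 50 bases after the annotated start. Relb and Traf6 had no entry. The letters GGGA, any 3 bases and TCC, a form of the kB element searched on both strands, occurred in 4 of the 8 windows (Nfkb1, Nfkb2, Nfkbia and Tnfaip3) and in 4.09% of all 33469 windows. A looser form with any 4 bases between GGGA and CC, which includes the first, was in 5 of the 8, Rel being added, and in 19.3% of all windows. Neither form was in the windows of Rela and Nfkbie, which also fell, or of Irak1, which was not called. These letters were chosen after the sequences had been seen. The stretches around the element are shown for 3 genes that fell in the libraries labelled iAs, 5′ to 3′ on the gene's strand with the element in capitals.
Nfkb2 (GRCr8 chr1:255108344-255108373, + strand): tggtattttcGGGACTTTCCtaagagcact
Nfkbia (GRCr8 chr6:78597084-78597113, - strand): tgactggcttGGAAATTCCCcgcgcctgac
Tnfaip3 (GRCr8 chr1:15544027-15544056, - strand): tcacgtgactGGAAAGTCCCtcggaaatcc
The element reads forward in Nfkb2 and in reverse in Nfkbia and Tnfaip3, and it ends 11, 22 and 58 bases before the annotated start in Nfkb2, Nfkbia and Tnfaip3. In Nfkb1 it lies after the start, from base 4. A match describes letters only, and binding was not measured.

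Among the subunits, Nfkb2 (ENSRNOG00000019311), which encodes the p100 precursor of p52, had 1498, 2583, 1689, 1959.5 and 1761 normalized counts in iAs replicates 1 to 5. It had 5514, 4271, 4968 and 5628 in untreated replicates 1 to 4. The highest iAs library lay well under the lowest untreated one. Its log2 difference was -1.44 (SE 0.14, limma adjusted p = 2.8e-05), and 1.12% of the genes tested had a lower one. Relb (ENSRNOG00000033235), the main partner of p52, had 1042.5, 1524, 905, 921 and 923 normalized counts in iAs replicates 1 to 5 and 1833, 1773, 1983 and 2475 in untreated replicates 1 to 4. iAs replicate 2 stood above the other 4 libraries of its group and untreated replicate 4 above the other 3 of its own, but the groups did not overlap. The log2 difference of Relb was -0.94 (SE 0.15, adjusted p = 7.5e-04).

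Rela (ENSRNOG00000030888), the main transactivating subunit, was the most even gene of the set. It had 4430.2, 4548, 4322, 4545 and 4443 normalized counts in iAs replicates 1 to 5 and 5479, 5695, 5431 and 5700.2 in untreated replicates 1 to 4. Its SD was 2.11% of the mean in libraries labelled iAs and 2.54% where labelled untreated, so a small log2 difference of -0.32 (SE 0.04, adjusted p = 2.3e-04) exceeded it. Nfkb1 (ENSRNOG00000023258), the precursor gene of p50, differed by the same amount at -0.32 (SE 0.06, adjusted p = 0.0026), with 3043 ± 215 normalized counts where labelled iAs and 3785 ± 186 where labelled untreated (SD, n = 5 and 4). Rel (ENSRNOG00000054437), the c-Rel gene known mainly from lymphoid cells, was low. It had 109, 129, 145, 119.5 and 92.3 normalized counts in iAs replicates 1 to 5 against 154, 187, 196 and 165 in untreated replicates 1 to 4. The closest libraries were 145 and 154, and the log2 difference was -0.57 (SE 0.16, adjusted p = 0.019). Rel was not called when untreated replicate 3 was left out (adjusted p = 0.0646).

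The log2 differences of the 3 inhibitor genes all lay below that of Rela. Nfkbia (ENSRNOG00000007390) encodes IkB-alpha, which NF-kB itself induces in a feedback loop. It had 1339, 1775, 1378, 1203 and 1105 normalized counts in iAs replicates 1 to 5 and 2447, 2437, 2032 and 2633 in untreated replicates 1 to 4, a log2 difference of -0.82 (SE 0.12, adjusted p = 4.6e-04). Nfkbie (ENSRNOG00000019907), the gene of IkB-epsilon, had 524, 557, 507, 405 and 483 normalized counts in iAs replicates 1 to 5 and 958, 876, 979.7 and 1017 in untreated replicates 1 to 4. The highest iAs library had 557 and the lowest untreated one 876, and the log2 difference was -0.96 (SE 0.10, adjusted p = 4.2e-05). Tnfaip3 (ENSRNOG00000049517) encodes A20, a ubiquitin-editing enzyme that damps signalling upstream of the kinase. It had 464, 474, 381, 302 and 391 normalized counts in iAs replicates 1 to 5 and 569.6, 542, 535 and 518 in untreated replicates 1 to 4. The untreated libraries lay close together and the iAs libraries spread more widely below them. Its log2 difference was -0.44 (SE 0.13, adjusted p = 0.0196), a call lost without untreated replicate 1 (adjusted p = 0.0561).

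**Figure D2:**
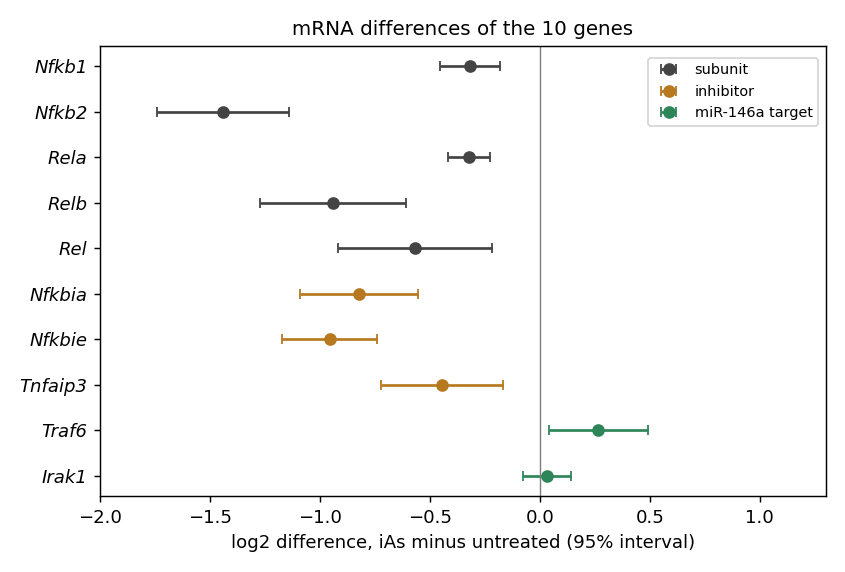
The log2 difference of each gene (x axis, libraries labelled iAs minus untreated) with its 95% interval from limma, not adjusted for the number of genes, in colours by role. Nfkb2 lies farthest below 0 at -1.44, Rela and Nfkb1 nearest among the genes that fell at -0.32, and the interval of Irak1 spans 0.

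The genes did not fall in proportion to each other. The 3 ratios taken within a library, which do not depend on how that library was scaled, were each lower in the libraries labelled iAs by a two-sided exact permutation test. Nfkb2 over Nfkb1 was 0.622 ± 0.116 where labelled iAs and 1.34 ± 0.118 where labelled untreated (SD, n = 5 and 4, as for the other 2 ratios). It did not overlap between the groups, with a log2 difference of -1.12 (exact p = 0.0159, the smallest that 126 splits can give). Nfkbia over Rela was 0.305 ± 0.0553 where labelled iAs and 0.428 ± 0.0383 where labelled untreated, with a log2 difference of -0.50 (exact p = 0.0317). Relb over Rela was 0.238 ± 0.0557 where labelled iAs and 0.361 ± 0.0533 where labelled untreated, with a log2 difference of -0.62 (exact p = 0.0476). In both ratios to Rela, iAs replicate 2 overlapped the untreated range. Adjusted over the 3 ratios, each exact p was 0.0476. Without iAs replicate 2 each adjusted exact p was 0.0286, and without any other single library, where fewer splits exist, all 3 ratios missed 0.05 (adjusted exact p of 0.0536 to 0.107).

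**Figure D3:**
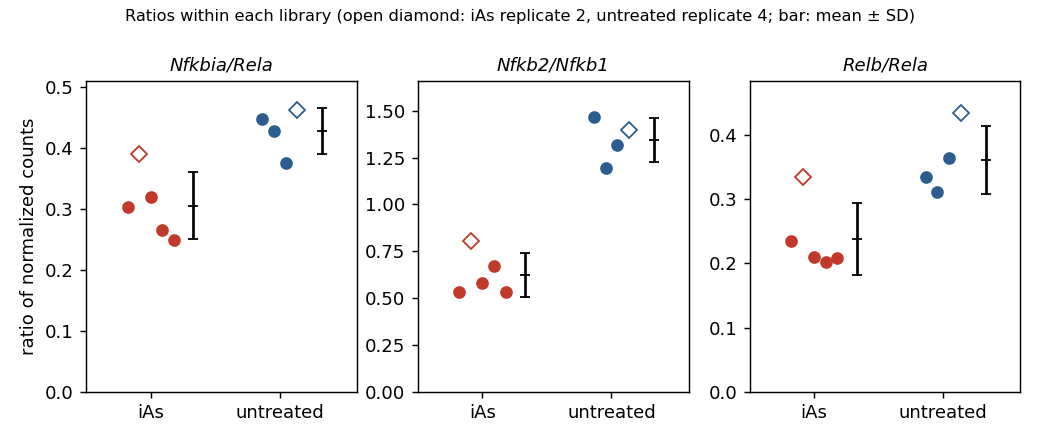
Ratios of normalized counts within each library (y axes, from 0) for Nfkbia over Rela, Nfkb2 over Nfkb1 and Relb over Rela, with libraries labelled iAs left of those labelled untreated, the mean ± SD beside them and iAs replicate 2 and untreated replicate 4 as open diamonds. The Nfkb2 over Nfkb1 ratio averages 0.622 in libraries labelled iAs and 1.34 in those labelled untreated.

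The miR-146a target genes behaved otherwise. Irak1 (ENSRNOG00000060869), a kinase recruited to interleukin-1 and Toll-like receptors, had 11147, 10676, 11666, 11382 and 11735 normalized counts in iAs replicates 1 to 5 and 11392, 11091, 11429.6 and 10319 in untreated replicates 1 to 4. The groups overlapped along most of their range. Its log2 difference was 0.03 with a 95% interval of -0.07 to 0.14 (adjusted p = 0.65), so the interval lies within 0.950 to 1.10 of the untreated level. Traf6 (ENSRNOG00000004639), the ubiquitin ligase downstream of Irak1, had 1117, 1196, 1006, 1119.8 and 1129 normalized counts in iAs replicates 1 to 5. In untreated replicates 1 to 4 it had 760.3, 1131, 951 and 893, so untreated replicate 2 lay among the iAs libraries. Its log2 difference was 0.27 with a 95% interval of 0.04 to 0.49 before adjustment (adjusted p = 0.072), and it was called higher without untreated replicate 2 (0.36, adjusted p = 0.0122).

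In the small RNA libraries both 5p arms of the miR-146 family were measured. Their sequences (RefSeq, GRCr8) are shown because they share the seed through which a microRNA pairs with its targets, given in capitals (bases 2 to 8).
rno-miR-146a-5p: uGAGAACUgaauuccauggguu
rno-miR-146b-5p: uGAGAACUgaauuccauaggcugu
They are identical over their first 17 bases and were the only 2 mature rat microRNAs in that table with this seed. The values are RPMMM, in which each library's reads are scaled to a total of 1000000 reads mapped to microRNAs.

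miR-146a-5p was highest with iAs. It had 29.3, 30.0 and 27.5 RPMMM in iAs replicates 1 to 3, 15.6, 18.9 and 17.9 with Cd, 12.4, 12.65 and 14.8 with Mn, and 16.8, 13.3 and 15.01 in untreated cells. No iAs library overlapped any other group, as was so for 29.3% of rows against untreated cells, 21.6% against Cd and 35.0% against Mn, while the Cd and Mn libraries each overlapped the untreated ones. Against untreated cells the log2 difference was 0.90 with iAs (SE 0.12, limma adjusted p = 3.1e-04), where 2.68% of 523 rows were called higher and 8.41% in either direction. It was 0.20 with Cd (95% interval -0.05 to 0.46, adjusted p = 0.27) and -0.17 with Mn (95% interval -0.42 to 0.09, adjusted p = 0.38), where 10.5% of rows were called with Cd and 7.46% with Mn. The difference between metals was itself past the threshold, at 0.70 for iAs against Cd (adjusted p = 0.0051, with 2.87% of rows called) and 1.07 for iAs against Mn (adjusted p = 7.7e-05, with 17.0% of rows called). The direction of miR-146a-5p with iAs was thus opposite to that of the 8 genes in the libraries labelled iAs. The mRNA and small RNA libraries are separate samples, and whether these differences are related was not tested.

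miR-146b-5p, with the same seed, was far more abundant. It had 2828, 2836 and 2878 RPMMM in iAs replicates 1 to 3, 2451, 2607 and 2597 with Cd, 2359, 2427 and 2486 with Mn, and 2646, 2636 and 2579 in untreated cells. The iAs libraries again lay above all others, by a small margin. Its log2 difference from untreated cells was 0.12 with iAs (95% interval 0.01 to 0.22 before adjustment, limma adjusted p = 0.12). It was -0.04 with Cd (adjusted p = 0.63) and -0.11 with Mn (adjusted p = 0.15). Between metals it was 0.16 for iAs against Cd (adjusted p = 0.11). For iAs against Mn it was 0.23 (adjusted p = 0.0058, with 17.0% of rows called). miR-146a-5p made up 1.01% ± 0.05 of the summed 5p arms with iAs, 0.679% ± 0.044 with Cd, 0.544% ± 0.042 with Mn and 0.571% ± 0.064 in untreated cells (SD, n = 3 each). The sum itself was 2876 ± 26 RPMMM with iAs and 2635 ± 36 in untreated cells (SD, n = 3 each), higher by 9.14%. Of that difference 227 RPMMM came from miR-146b-5p and 13.9 RPMMM from miR-146a-5p. The sum was formed after the values were seen and was not tested, and library preparation can favour one of these sequences over the other.

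**Figure D4:**
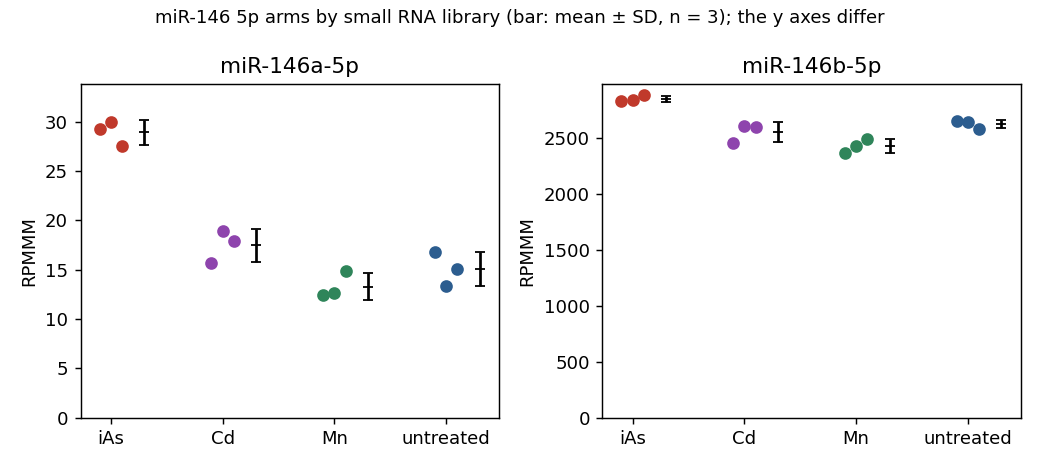
RPMMM (y axes, from 0, on different scales) of miR-146a-5p and miR-146b-5p in the 3 libraries each of iAs, Cd, Mn and untreated cells, with the mean ± SD beside the points. The iAs libraries stand at 27.5 to 30.0 for miR-146a-5p and at 2828 to 2878 for miR-146b-5p, above every other library.

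Further microRNAs known to be induced by NF-kB or to act on its pathway gave 16 tested rows of 33, including those of miR-146a and miR-146b. The 16 include forms with a shifted start, so they are not 16 separate microRNAs. With iAs against untreated cells 1 of the 16 was called, miR-146a-5p, beside 8.41% of all 523 rows tested. Against untreated cells 0 were called with Cd, beside 10.5% of all rows, and 1 with Mn, beside 7.46%. With Mn, miR-125b-1-3p had 38.02 ± 3.65 RPMMM against 21.5 ± 3.72 in untreated cells (SD, n = 3 each; log2 difference 0.80, adjusted p = 0.011). miR-21-5p, an abundant row, averaged 4349.7 RPMMM with iAs and 4919.97 in untreated cells (-0.17, adjusted p = 0.33). miR-155, miR-9 and miR-223 matched no row and were not analysed here.

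Other genes of the pathway were taken from lists by role. Genes that NF-kB is known to induce fell in 10 of 14 tested members and rose in 0, beside 14.9% lower and 15.1% higher of all genes tested, with a median log2 difference of -0.55 beside 0.00. A further 12 of the list, among them Tnf, Il6 and Il1b, had means under 10 normalized counts. The 10 falls include the chemokine gene Cxcl1, named after its values were seen. It averaged 7.45 normalized counts where labelled iAs and 64.4 where labelled untreated, and so passed the minimum mean of 10 through the untreated libraries. The falls of this list numbered 9 with a minimum mean of 50 and 11 without a filter. The adhesion molecule gene Icam1 averaged 50.6 ± 20.8 normalized counts where labelled iAs and 691 ± 102 where labelled untreated (SD, n = 5 and 4). The chemokine gene Cxcl10 differed by -3.71 in log2 (SE 0.21, adjusted p = 8.5e-07), the death receptor gene Fas by -1.37 (adjusted p = 3.1e-05) and the growth factor gene Csf1 by -1.20 (adjusted p = 1.1e-04). In the list of other inhibitors 7 of 14 tested genes fell (50%) and 0 rose, beside the same 14.9% and 15.1% (median -0.37). The falls included Tnip1, a partner of A20, at -0.53 (adjusted p = 1.3e-04), and Nfkbib, the IkB-beta gene, at -0.52 (adjusted p = 9.9e-04). Bcl3 (-0.55) and Nfkbid (-0.69) also fell, both named after their values were seen. Bcl3 was not called when untreated replicate 3 was left out (limma adjusted p = 0.0676). The falls of this list counted 5 to 8 when 1 library was left out, beside 11.6% to 13.9% of all genes tested. Whether each listed gene acts as an inhibitor in these cells was not measured.

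Receptors and adaptors had 9 falls (47.4%) and 3 rises (15.8%) among 19 tested genes, the share of rises being close to the 15.1% of all genes tested and that of falls standing beside 14.9% (median -0.23). The falls counted 6 to 9 when 1 library was left out, beside 11.6% to 13.9% of all genes tested. The rises were in Cd40, Traf5 and Il1r1. The tumour necrosis factor receptor superfamily gene Cd40 rose to 80.6 ± 34.1 normalized counts where labelled iAs, against 22.8 ± 5.49 where labelled untreated (SD, n = 5 and 4), with a log2 difference of 1.72 (adjusted p = 0.0015). Traf5 differed by 0.68 and the interleukin-1 receptor gene Il1r1 by 0.37, both named after their values were seen. The adaptor gene Traf1 fell by 1.69 on the log2 scale (adjusted p = 0.0023). Irak2, a relative of Irak1 and itself a reported miR-146a target, fell to 69.2 ± 9.41 normalized counts where labelled iAs, against 145 ± 5.04 where labelled untreated (SD, n = 5 and 4).

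Among the kinases and their ubiquitin machinery 3 of 12 tested genes fell (25%) and 1 rose (8.33%), beside 14.9% and 15.1% of all genes tested. The falls were in Tbk1 (-0.33, adjusted p = 9.8e-04), Sharpin (-0.37, adjusted p = 0.0012) and Rnf31 (-0.48), of which the last 2 encode parts of the linear ubiquitin ligase. Tab1, a partner of the kinase TAK1, rose (0.26). It was no longer called after rescaling to equal totals (adjusted p = 0.0524), nor when untreated replicate 3 was left out (adjusted p = 0.0577). The genes of the IkB kinase complex were not called, with log2 differences of 0.07 for Chuk, 0.04 for Ikbkb and 0.02 for Ikbkg, nor was Map3k14, the kinase of the non-canonical branch, at -0.08 (adjusted p = 0.70). Map3k7 was listed at 0 in every library. Rnf31 and Tab1 were named after their values were seen.

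Further reported miR-146a targets, known mainly from human and mouse, fell in 3 of 12 genes (25%) and rose in 2 (16.7%), beside 14.9% and 15.1% of all genes tested, with a median log2 difference of -0.01. Irak2 and the receptor gene Notch1 (-0.76) were among those that fell. Smad4 (0.20), a mediator of TGF-beta signalling, rose, as did Card10 (0.24), whose call was lost without any of iAs replicates 1, 2, 3 and 5 and untreated replicates 1, 3 and 4 (adjusted p of 0.0685 to 0.108). The neural cell fate gene Numb was at 0.01 (adjusted p = 0.96). Notch1, Smad4, Card10 and Numb were named after their values were seen.

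**Figure D5:**
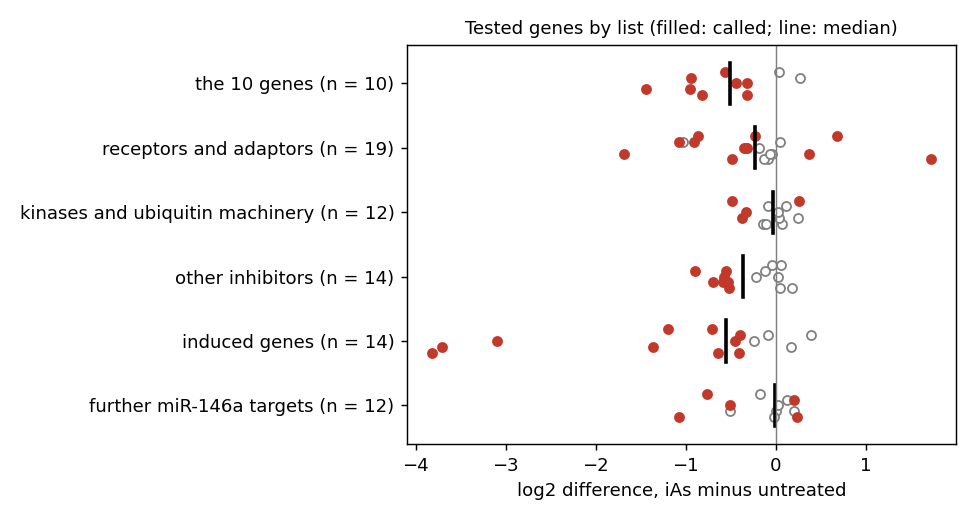
The log2 difference (x axis, libraries labelled iAs minus untreated) of each tested gene in the 10 genes of the set and in 5 lists by role, with called genes filled, others open and the median as a line. The medians lie at -0.55 for induced genes, -0.51 for the set, -0.37 for other inhibitors and close to 0 for kinases and further miR-146a targets.

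The library codes of iAs replicate 2 and untreated replicate 4 share an ending, and both libraries stood high for much of the set. Of the 8 subunit and inhibitor genes, 6 had their highest value of the iAs group in iAs replicate 2, and 6 their highest value of the untreated group in untreated replicate 4. How often these libraries were highest over all genes was not counted, so whether this is a trait of the set or of the libraries was not tested. Over all genes tested, the deviations of these 2 libraries from their group means had a correlation of 0.17. Other pairs of an iAs and an untreated mRNA library had -0.14 to 0.10. Relb in these libraries was 1.61 times the mean of the other iAs libraries and 1.33 times that of the other untreated libraries, and Nfkbia 1.41 and 1.14 times. Irak1 was lowest of its group in both. What the ending stands for is not given in the labels. With the ending as a factor 8 of 10 genes were called lower, beside 2597 of 14410 genes tested. Without both libraries 8 of 10 were again called lower, beside 1889 of 14405 genes tested. Within ending 52 alone, 6 were called lower, beside 1456 of 14380 genes tested. Rel and Tnfaip3 then had adjusted p = 0.0521 and 0.0643 in limma, and Traf6 was called higher (0.40, adjusted p = 0.033). Each remaining ending has a single library per group and gives no fit of its own.

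Across the 9 mRNA libraries the levels of Relb followed Nfkbia most closely among the other 9 genes (Pearson's r = 0.95). Traf6 and Irak1 had r = -0.58 each. Taken as deviations from the group means, the values were 0.76 for Relb, 0.04 for Traf6 and -0.75 for Irak1. Over 12775 other genes, the patterns most like Nfkbia were those of the tyrosine kinase gene Txk (r = 0.98), the actin nucleator gene Cobl (0.98) and Gclc (0.98), the catalytic subunit gene of glutathione synthesis. These values describe 9 libraries that share 2 groups, so the difference between the groups is part of every value except those taken as deviations.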

How the data were processed

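The authors deposited mRNA values as a signal, gene-level counts after DESeq2 normalization, per the labels. STAR, Salmon, DESeq2 and the build rn6 are named in the submitters' processing notes, without versions or roles. Low mRNA values spread around 1 step per library, so count tests were not run. The small RNA values are RPM of microRNA reads (RPMMM) scaled by the authors, per the labels. Between 62.0% and 73.4% of low RPMMM values were whole multiples of a step (tolerance 0.0075), too few to recover reads.

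Groups come from the sample titles. Columns were matched by the library code in the description, which differs from that in the title for 4 mRNA libraries, within a group. limma-trend (limma 3.58.1, R 4.3.3) was run on log2(value + 1) over rows with a mean of at least 10 (14410 of 32750 genes, 523 of 1186 small RNA rows). A log2 difference is on this scale, which understates changes of low genes. P-values were adjusted by Benjamini-Hochberg over all rows of a comparison, with a threshold of 0.05. Ratios used exact permutation tests in scipy 1.17.1. The fits were also run on simulated data with independent libraries. Those data held no effect of lane or code ending, so they could not test for one. Deviations of same-numbered small RNA libraries had correlations of 0.37, 0.46 and 0.18 between iAs and Cd. Between untreated and iAs they were -0.55, -0.14 and 0.13, and between untreated and Cd -0.62, -0.16 and 0.18. Libraries of different numbers reached 0.69 (untreated replicate 1 with Cd replicate 2). Neither the labels nor these values establish a pairing by number, and a block by number changed no call of miR-146a-5p.

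The genes and lists were chosen with earlier results of these data known. Named were all 10 genes, and from each list up to 6 called genes with a mean of at least 50 and an absolute log2 difference of at least 1, or else the 2 with the smallest adjusted p. A gene that this rule names is not reported here. Hmox1, Mt1 and the markers were named as checks, and the remaining genes once their values were known. Gene names are those of the files, and coordinates are given only for sequences.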

Additional observations from a re-analysis of the deposited data

Results flagged for a closer look

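In iAs replicate 2, Relb had 1524 normalized counts, and the next highest library of the group, iAs replicate 1, had 1042.5. This gap was 0.777 of the range of the 5 libraries. The ratio of Relb to Rela was likewise high in iAs replicate 2 at 0.335, with the next highest at 0.235, a gap of 0.753 of the range. Both rest on the same value of Relb. They are 2 of 26 sets of values examined for a library far from the rest of its group, and chance gives such a gap in about 1 of 20 sets. Without this library the log2 difference of Relb remained called.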

How the results depend on the processing

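The 8 falls held with pseudocounts of 0.5 and 5, other filters, 3 other scalings, limma without a trend and the code ending as a factor. Leaving out 1 library gave 7 to 9 called genes (7 or 8 lower), where 11.6% to 13.9% of all genes tested were called lower. The log2 differences were then -0.64 to -0.48 for Rel, -0.51 to -0.35 for Tnfaip3 and 0.17 to 0.36 for Traf6. Nfkb1, Nfkb2, Rela, Relb, Nfkbia and Nfkbie were called in each of these settings, and Irak1 in none. Same-numbered mRNA libraries did not deviate together (correlations -0.04 to 0.03). With the replicate number as a block 6 were called, Rel (-0.48) and Tnfaip3 (-0.44) having limma adjusted p = 0.0739 and 0.05005. iAs replicate 5 has no untreated library of its number, so the block also leaves it out of the differences. Within ending 52 alone, Rel (-0.70) and Tnfaip3 (-0.54) lost their calls and Traf6 (0.40) gained one. The block lowered the calls among all genes to 1410 lower and 1351 higher, against 2140 and 2181. Rescaling to equal totals moved the share of lower calls among all called genes to 58.6%, against 49.5%.

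The ratio differences kept their sign. Leaving out 1 library gave -0.59 to -0.43 for Nfkbia over Rela, -1.22 to -1.07 for Nfkb2 over Nfkb1 and -0.75 to -0.53 for Relb over Rela. Without both iAs replicate 2 and untreated replicate 4, a choice made after the data were seen, they were -0.56, -1.20 and -0.66 (adjusted exact p = 0.0571 each, the smallest that 35 splits can give). The mean differences over pairs by replicate number, a block of 4 pairs that cannot reach 0.05, were -0.43, -1.07 and -0.58.

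The calls of miR-146a-5p for iAs against untreated, Cd and Mn held in all 19 alternatives, between 0.76 and 0.98 for the first, and no alternative called it with Cd or Mn. Among the lists, the block left 4 falls of other inhibitors and 0 rises of kinases and of further miR-146a targets. The rises of further targets numbered 0 within ending 52, 1 without a filter, with equal totals, without a trend and without both libraries, and 1 to 2 when 1 library was left out. The rises of kinases numbered 0 with equal totals and 0 to 1 when 1 library was left out. The rises of other inhibitors numbered 1 within ending 52 and without both libraries. Leaving out 1 library gave 0 to 1 rises of other inhibitors and of induced genes. The cause of these changes was not tested. The values of miR-146a-5p are low, which limits its precision.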
